A study of Homo sapiens with 6 samples.

Results

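IFI6, IFI27, IFI35, IFI44, IFI44L, BST2, XAF1, CMPK2, RSAD2 and DDX60 encode effector proteins that human cells make in response to interferon. They were examined as a group of 10 named genes in PC3 cells depleted of VprBP, and 8 of the 10 were listed among the 12227 genes of the deposited table. BST2 and XAF1 were not analysed here. The genes were chosen by name, partly because IFI6 and IFI44 were already known to be among the largest increases in these libraries, so their difference between the groups is given as a description and without a test. PC3 is an established human prostate cancer cell line. RNA sequencing was performed on 3 libraries from PC3 cells with short hairpin RNA (shRNA) against VprBP, labelled as VprBP knockdown, and on 3 libraries from PC3 cells with control shRNA, whose genotype is labelled WT. VprBP is the protein encoded by DCAF1, which recruits substrates to the CRL4 ubiquitin ligase and has also been described as a kinase of histones. The labels do not say whether the replicate numbers stand for hairpins, cultures or repeat libraries, so the errors and p-values below measure the spread between these libraries, which may be technical.

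Type I and type III interferons bind receptors at the cell surface and activate the kinases JAK1 and TYK2, which phosphorylate STAT proteins. These join IRF9 to form ISGF3, a transcription factor complex that binds the interferon-stimulated response element, a DNA motif built from repeated GAAA cores. Genes under this element are kept low in resting epithelial cells and make products that act at many steps of viral infection. The group spans several such steps. IFI6 and IFI27 are small hydrophobic membrane proteins, RSAD2 (viperin) is a radical enzyme that turns CTP into a chain-terminating nucleotide, and CMPK2 is a mitochondrial nucleotide kinase. DDX60 is a putative RNA helicase, IFI44 and IFI44L are related cytoplasmic proteins, and IFI35 is a leucine zipper protein that binds NMI.

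The promoter sequences are shown because paired GAAA cores were the feature that the listed genes shared and that the choice of genes did not use. RefSeq promoter windows on GRCh38.p14, each running from 250 bases before to 50 bases after an annotated transcript start, were found for all 10 genes. Capitals mark every match to GAAA NN GAAA or GAAA N GAAA, where N is any base and the letters are read without gaps, on either strand; a match on the reverse strand reads TTTC NN TTTC or TTTC N TTTC. Where a gene has several windows, the one with the most matches is shown, which need not be the start used in PC3 cells. The windows of IFI6 (chr1:27672143-27672442, minus strand), IFI44L (chr1:78620198-78620497, plus strand) and RSAD2 (chr2:6865635-6865934, plus strand) are given whole, because each holds repeated matches.
IFI6: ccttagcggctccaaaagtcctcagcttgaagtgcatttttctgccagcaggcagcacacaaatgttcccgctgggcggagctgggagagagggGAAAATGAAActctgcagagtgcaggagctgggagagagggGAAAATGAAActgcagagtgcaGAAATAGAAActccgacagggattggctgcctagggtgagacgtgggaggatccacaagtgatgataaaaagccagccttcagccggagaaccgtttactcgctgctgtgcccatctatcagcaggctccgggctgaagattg
IFI44L: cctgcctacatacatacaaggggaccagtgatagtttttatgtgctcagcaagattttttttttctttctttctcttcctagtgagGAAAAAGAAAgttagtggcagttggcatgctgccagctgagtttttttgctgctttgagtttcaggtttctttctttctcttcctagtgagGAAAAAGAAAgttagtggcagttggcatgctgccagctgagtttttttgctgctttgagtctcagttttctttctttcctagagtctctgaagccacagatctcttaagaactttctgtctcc
RSAD2: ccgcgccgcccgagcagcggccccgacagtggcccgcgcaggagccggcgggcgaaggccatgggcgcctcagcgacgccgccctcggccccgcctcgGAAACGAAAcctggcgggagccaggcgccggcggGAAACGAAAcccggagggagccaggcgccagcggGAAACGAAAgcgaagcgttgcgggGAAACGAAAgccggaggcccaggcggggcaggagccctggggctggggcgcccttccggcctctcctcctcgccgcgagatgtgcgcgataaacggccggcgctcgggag
For the other listed genes the matches are given with 12 bases on each side, from IFI44 (chr1:78649759-78649797, plus strand), IFI27 (chr14:94110616-94110662, plus strand), DDX60 (chr4:168318784-168318852, minus strand), CMPK2 (chr2:6865789-6865845, minus strand) and IFI35 (chr17:43006756-43006788, plus strand).
IFI44: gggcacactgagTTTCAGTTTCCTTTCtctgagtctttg
IFI27: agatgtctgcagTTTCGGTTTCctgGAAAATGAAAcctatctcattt
DDX60: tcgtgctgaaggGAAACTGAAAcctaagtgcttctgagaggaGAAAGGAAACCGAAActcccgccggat
CMPK2: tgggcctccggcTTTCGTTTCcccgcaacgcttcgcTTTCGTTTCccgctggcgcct
IFI35: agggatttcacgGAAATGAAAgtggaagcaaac

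GAAA NN GAAA, the spacing of the classical response element, was present in a promoter window of 6 of the 8 listed genes, against 1195 of 27305 genes (4.38%) in the whole promoter table. The exceptions were IFI35 and CMPK2. RSAD2 held it only in a second window, at a transcript start further downstream (chr2:6877527-6877826), which is not printed above. Which of the RSAD2 starts is used in PC3 cells was not tested. The narrower GAAA N GAAA was present in 5 of the 8 listed genes and in 3.87% of the genes in the promoter table. With either spacing counted, all 8 listed genes had a match, against 7.83% of the genes in the promoter table. More than 1 match was found in 7 of the 8, against 0.769% in the promoter table. Matches that share bases, as in IFI44, were counted separately. Among the other listed interferon-stimulated genes, 37 of 50 had a promoter window, and 22 of these (59.5%) held GAAA NN GAAA and 67.6% either spacing. With windows for fewer than 80% of that list the comparison is void, and nothing particular to the 8 genes can be read from the motif. These are matches of letters and say nothing of whether a factor was bound in PC3 cells.

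The matches in IFI44L and part of those in IFI6 lay in exact direct repeats. In IFI44L, GAAAAAGAAA occurred 164 and 73 bases before the start, within an exact repeat of 85 bases shifted by 91 bases. In IFI6, GAAAATGAAA occurred 156 and 115 bases before the start, within an exact repeat of 29 bases, and GAAATAGAAA lay outside it, 93 bases before the start. In the upstream RSAD2 window, the one printed above, GAAACGAAA occurred at 152, 118, 84 and 60 bases before the start. Pairs of these matches shared exact runs of 10 to 13 bases. Exact runs miss imperfect repeats. Over 60 bases compared at a fixed shift, without gaps, the RSAD2 pair at 152 and 118 was identical at 41 and the pair at 118 and 84 at 39. The IFI6 pair was identical at 35 of 60 and the IFI44L pair at all 60. The other RSAD2 pairs were identical at fewer bases. The IFI6 copies differ in length just after their exact run and then fall out of step, so these counts do not rank the repeats. RSAD2 and CMPK2 are transcribed away from each other. The upstream RSAD2 window and the CMPK2 window share 165 bases of chromosome 2 (chr2:6865770-6865934). The pair of matches in the CMPK2 window are the same bases, read from the opposite strand, as the RSAD2 matches 84 and 60 bases before its start.

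**Figure D1:**
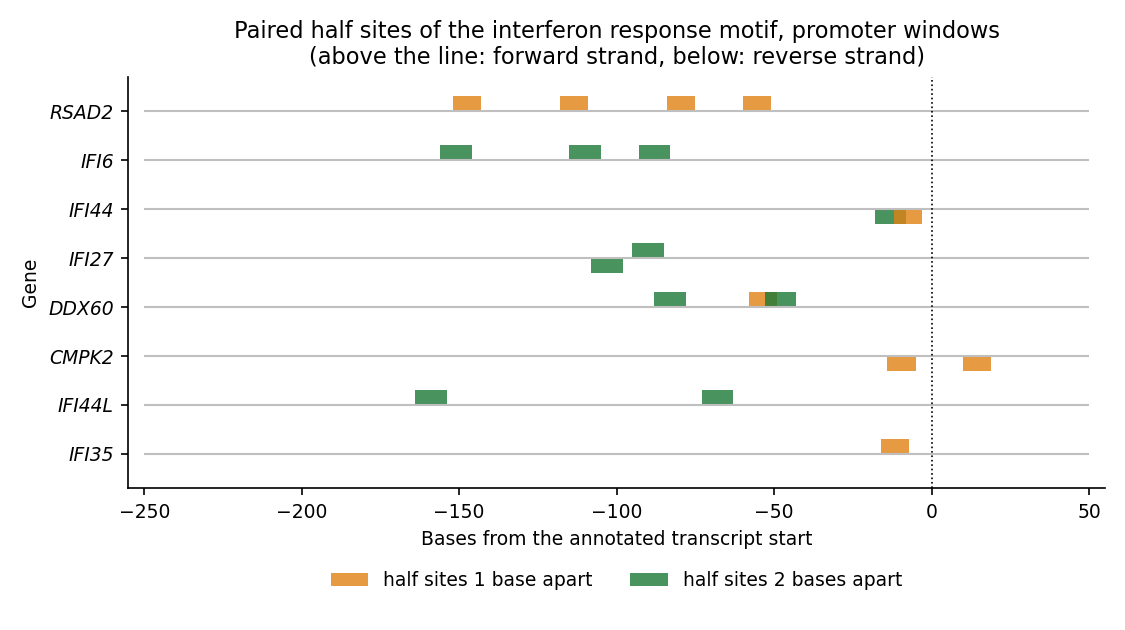
Position of paired GAAA cores in 1 promoter window of each listed gene, in bases from the annotated transcript start; green blocks have cores 2 bases apart, orange blocks 1 base apart, and blocks above or below the line lie on the forward or reverse strand. RSAD2 has 4 orange blocks between 152 and 60 bases before the start, and IFI35 has a single one 16 bases before it. Where a gene has several windows, the one with the most matches is drawn, which for RSAD2 is the upstream one.

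The deposited values are a signal scaled for library depth and not divided by gene length. Dividing each library's values by the value of 1 read gave 23029472 to 39633923 estimated reads per VprBP shRNA library and 22981896 to 32293198 per control library. DCAF1, the knockdown target, had 38.5, 41.1 and 40.2 in VprBP shRNA libraries 1 to 3 and 79.4, 78.5 and 78.7 in control libraries 1 to 3. Its log2 fold change of -0.97 had an SE of 0.05 and an adjusted p of 3.56e-11 in limma, and an exact two-sided permutation test gave p = 0.1, the smallest that 3 libraries against 3 allow. The median difference over genes was 4.51% to 6.76% between libraries of a group and 16.1% to 18.3% between groups. VprBP shRNA library 3 stood apart: chi-square divided by its degrees of freedom was 6.26 and 6.69 against libraries 1 and 2, and 3.39 to 3.85 for the other pairs within groups. Ratios without it are therefore given for each of the 8 effector genes. Of 7 epithelial markers of PC3 cells all were listed, while 1 of 13 leukocyte markers, 1 of 7 fibroblast markers and 1 of 5 endothelial markers were. The leukocyte marker CD68 had 26.4 ± 0.72 in VprBP shRNA cells and 26.3 ± 0.603 in control cells, and the endothelial marker PECAM1 had 23.3 ± 0.695 in VprBP shRNA cells and 54.2 ± 1.14 in control cells (SD, n = 3 each). Whether the difference in PECAM1 bears on the results below was not tested. Of 7 markers of androgen-responsive luminal prostate cells, 2 were listed. TMPRSS2, one of them, had 19.5 ± 1.22 in VprBP shRNA cells and 31.2 ± 1.31 in control cells (SD, n = 3 each).

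All 8 listed effector genes were higher in every VprBP shRNA library than in every control library, 7 of them by more than 2-fold. Over the whole table, 35.1% of genes had all VprBP shRNA libraries above all control libraries, 29.6% had them all below, and 2.05% were called higher with a ratio of at least 2. RSAD2, IFI27, CMPK2, IFI44, IFI6 and IFI44L had at most 142 estimated reads in any control library. The table holds genes with a highest estimate of at least 150 reads, so these genes are listed only through their VprBP shRNA libraries. The count of 8 is therefore partly fixed by this limit, and nothing is read from setting it against the shares over all genes. The ratio of group means ran from 1.65 for IFI35 to 39.2 for RSAD2, with a median of 13.0, against a median of 1.02 over all genes. Summed over the 8 genes, the values were 212, 206 and 219.9 in VprBP shRNA libraries 1 to 3 and 20.3, 23.0 and 22.0 in control libraries 1 to 3. In bulk RNA, more cells expressing these genes and more RNA per cell cannot be told apart.

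**Figure D2:**
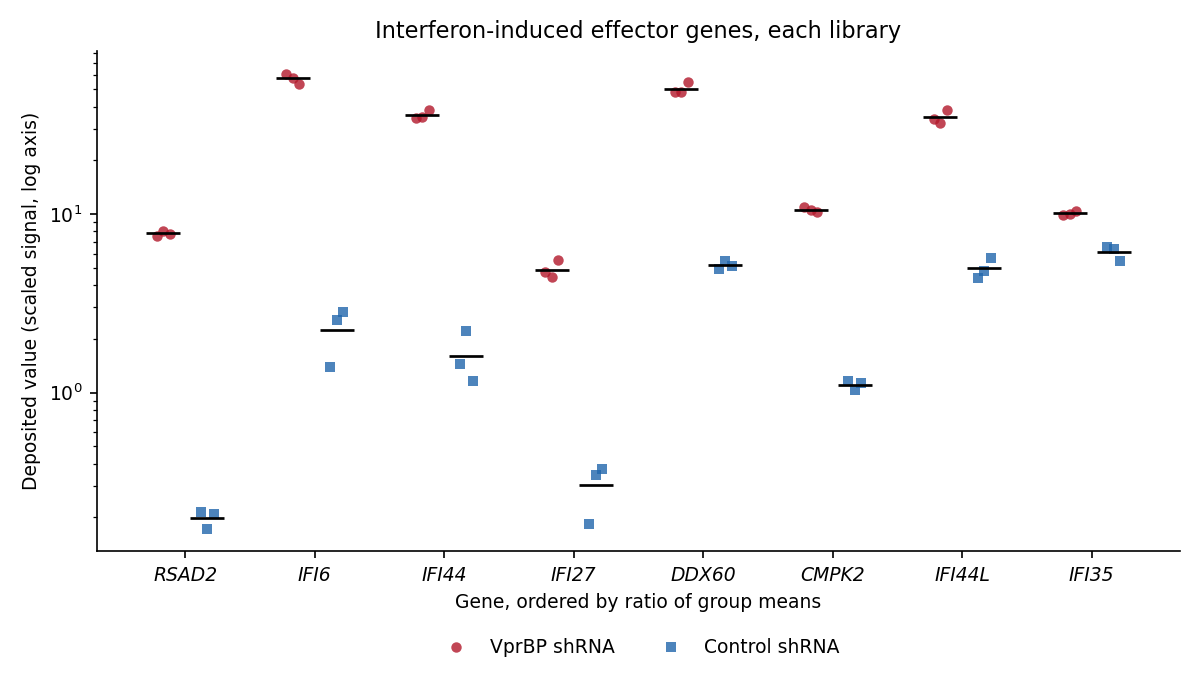
Deposited value of each listed gene in each library on a log axis, with VprBP shRNA libraries as red circles and control libraries as blue squares; the horizontal bars are means of 3 libraries. No gene's groups overlap, and the gap narrows from RSAD2 (39.2-fold) to IFI35 (1.65-fold).

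IFI6 (ENSG00000126709.16, chr1:27666064-27672212, minus strand), also known as G1P3, encodes a membrane protein that has been described as a brake on apoptosis and on flavivirus replication at the endoplasmic reticulum. Its value was 61.5, 57.6 and 53.8 in VprBP shRNA libraries 1 to 3, against 1.38, 2.55 and 2.84 in control libraries 1 to 3. The VprBP shRNA libraries lay close together, whereas control library 1 was well below the other controls. These control values rest on 45, 59 and 68 estimated reads. IFI6 was 25.6-fold higher, with ratios of 21.4 without control library 1 and 26.4 without VprBP shRNA library 3. It had the largest log2 fold change of the group, 4.44 (SE 0.15) on the log2(value + 0.5) scale, second of the 12227 genes.

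IFI27 (ENSG00000165949.13, chr14:94104836-94116695, plus strand) belongs to the same family as IFI6 and encodes a small protein reported at mitochondria and the nuclear envelope. It had 4.73, 4.42 and 5.53 in VprBP shRNA libraries 1 to 3, against 0.184, 0.345 and 0.375 in control libraries 1 to 3. It was the least abundant of the 8 genes in VprBP shRNA cells, and its control values rest on 6, 8 and 9 estimated reads. The ratio of means was 16.2, or 15.2 without VprBP shRNA library 3. From the reads pooled over libraries, 450 in VprBP shRNA cells and 23 in control cells, the depth-adjusted ratio was 16.7 with an exact (Clopper-Pearson) 95% interval of 11.0 to 26.6, which covers counting error only. The neighbouring family member IFI27L2 rose 2.19-fold, to 6.38 ± 0.101 in VprBP shRNA cells, against 2.92 ± 0.73 in control cells (SD, n = 3 each; limma adjusted p = 3.10e-05).

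IFI44 (ENSG00000137965.11, chr1:78649796-78664078) and IFI44L (ENSG00000137959.17, chr1:78619902-78646145) lie head to tail on the plus strand, 3650 bases apart, and encode related proteins with a guanine nucleotide-binding fold. IFI44 had 34.8, 34.8 and 38.5 in VprBP shRNA libraries 1 to 3, against 1.44, 2.20 and 1.17 in control libraries 1 to 3. IFI44L had 34.3, 32.4 and 38.3 in the VprBP shRNA libraries, against 4.36, 4.83 and 5.72 in the control libraries. The groups did not overlap for either gene, and the ratio of means was 22.5 for IFI44 and 7.04 for IFI44L. The values are not divided by gene length, and the levels of the pair are compared per kilobase further on. Without VprBP shRNA library 3, in which both genes were highest, the ratios were 21.7 and 6.71.

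RSAD2 (ENSG00000134321.13, chr2:6865557-6898239, plus strand) had the largest ratio of group means of all 12227 genes. Its values were 7.58, 8.05 and 7.77 in VprBP shRNA libraries 1 to 3, against 0.215, 0.173 and 0.209 in control libraries 1 to 3. The values within each group lay close together, but the control values stand for only 7, 4 and 5 estimated reads. The ratio of means was 39.2, or 39.3 without VprBP shRNA library 3. Pooled reads, 726 in VprBP shRNA cells and 16 in control cells, gave 38.8 with a 95% counting interval of 23.7 to 68.2. This interval includes the IFI6 ratio, so the order of RSAD2 and IFI6 is not resolved at this depth. On the log2(value + 0.5) scale, where the added constant exceeds the RSAD2 control value, its log2 fold change was 3.57 (SE 0.19) and ranked 6th.

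CMPK2 (ENSG00000134326.12, chr2:6840570-6866635, minus strand), the divergent neighbour of RSAD2, had 11.0, 10.5 and 10.2 in VprBP shRNA libraries 1 to 3, against 1.17, 1.04 and 1.13 in control libraries 1 to 3. Its ratio of means was 9.54, or 9.70 without VprBP shRNA library 3. The annotated bodies of CMPK2 and RSAD2 overlap by 1079 bases on opposite strands, and the strand setting of the counting is not known here, so reads in that stretch cannot be assigned with certainty. In control cells CMPK2 was the higher of the pair also per kilobase of merged exons, at 0.258 ± 0.0157 against 0.0411 ± 0.00474 for RSAD2 (SD, n = 3 each). In VprBP shRNA cells the same levels were 2.46 ± 0.0916 for CMPK2 and 1.61 ± 0.0485 for RSAD2. CMPK1, the housekeeping relative that phosphorylates UMP and CMP in the cytosol, was not called, at 207 ± 11.1 in VprBP shRNA cells and 198.3 ± 6.88 in control cells (SD, n = 3 each; limma adjusted p = 0.204).

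DDX60 (ENSG00000137628.18, chr4:168216291-168318883, minus strand) has been reported to bind the RNA sensor RIG-I and to promote its signalling. It had 48.3, 48.2 and 55.3 in VprBP shRNA libraries 1 to 3, against 4.95, 5.48 and 5.13 in control libraries 1 to 3. VprBP shRNA library 3 was the highest, and the ratio of means was 9.75 with it and 9.30 without it. The paralogue DDX60L, which lies next to it, rose 2.76-fold, to 24.5 ± 1.42 in VprBP shRNA cells, against 8.85 ± 0.836 in control cells (SD, n = 3 each; limma adjusted p = 7.58e-10). DDX60 and DDX60L are similar in sequence, and the authors' counting could have split reads between them. RIGI, the gene of RIG-I, rose 6.10-fold, to 59.0 ± 3.85 in VprBP shRNA cells, against 9.67 ± 0.518 in control cells (SD, n = 3 each; limma adjusted p = 2.30e-14).

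IFI35 (ENSG00000068079.8, chr17:43006740-43014456, plus strand) differed least. It had 9.92, 9.97 and 10.5 in VprBP shRNA libraries 1 to 3, against 6.55, 6.39 and 5.47 in control libraries 1 to 3. The ratio of means was 1.65, rank 478 of the 12227 genes, and leaving out single libraries moved it between 1.56 and 1.71, with 1.62 without VprBP shRNA library 3. IFI35 also had the highest value of the 8 genes in control cells, 6.13 ± 0.584 (SD, n = 3). Its binding partner NMI rose 2.13-fold, to 13.4 ± 0.239 in VprBP shRNA cells, against 6.25 ± 0.24 in control cells (SD, n = 3 each; limma adjusted p = 1.05e-07).

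**Figure D3:**
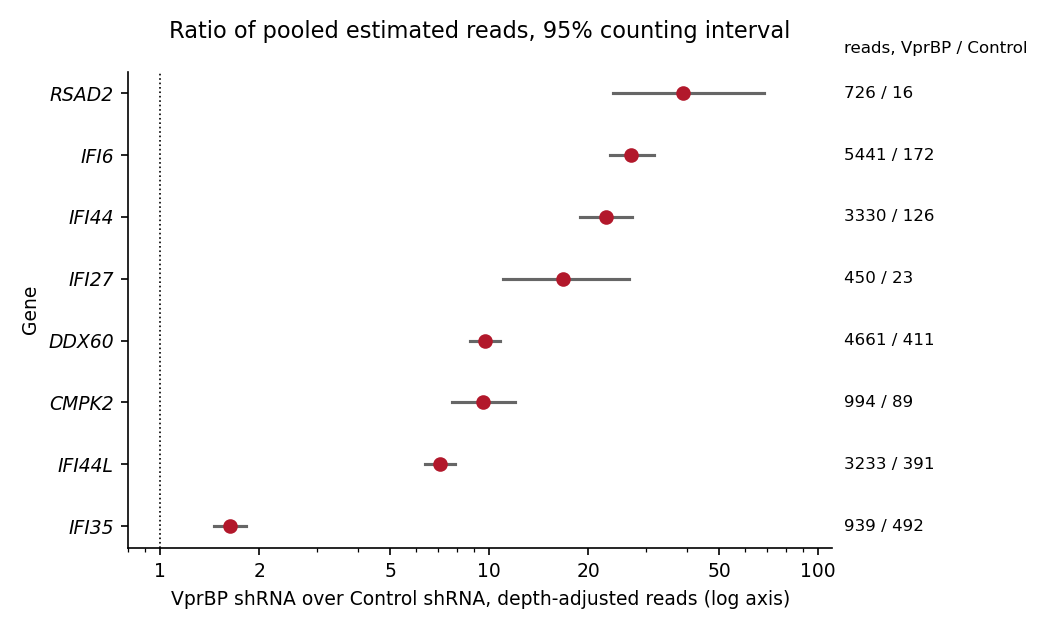
Ratio of pooled, depth-adjusted estimated reads, VprBP shRNA over control shRNA, on a log axis for each listed gene; bars are exact 95% intervals for counting error, and the pooled reads of both groups stand at the right. The intervals of RSAD2 (23.7 to 68.2) and IFI27 (11.0 to 26.6) are wide because 16 and 23 reads stand behind their control values.

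Levels were compared between genes per kilobase of merged exons in GENCODE 29. This length counts the exons of every annotated transcript, from 865 bases for IFI6 to 10240 bases for IFI44L, so a gene with unused exons comes out low. In VprBP shRNA cells IFI6 was the most abundant, at 66.6 ± 4.40 per kilobase, followed by IFI44 at 17.7 ± 1.04 and DDX60 at 7.49 ± 0.604 (SD, n = 3 each). IFI35 came next at 5.13 ± 0.15, then IFI44L at 3.42 ± 0.292, CMPK2, RSAD2 and lastly IFI27 at 1.18 ± 0.138. Each of these genes differed from its neighbour in the order by more than their SDs. In control cells IFI35 at 3.11 ± 0.296 and IFI6 at 2.61 ± 0.889 were the highest, and they did not differ beyond their SDs. IFI44 at 0.787 ± 0.262 and DDX60 at 0.768 ± 0.0401 were also within their SDs of each other. IFI44L at 0.485 ± 0.067 and CMPK2 followed. IFI27 at 0.0728 ± 0.0248 and RSAD2 at 0.0411 ± 0.00474 were the lowest, and no order is read between them from 23 and 16 pooled reads.

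Deviations within a group were not shared by all genes. VprBP shRNA library 3 was the highest of its group for 5 of the 8 genes (IFI44, IFI44L, IFI27, DDX60 and IFI35) and the lowest for IFI6 and CMPK2, and its median deviation from the group mean was 5.08%. The same deviation was -2.43% in library 1 and -2.36% in library 2. Among the control libraries, library 1 was the lowest for 4 genes (IFI6, IFI27, DDX60 and IFI44L) and the highest for 3, with a median deviation of -7.29%. The coefficient of variation in control cells was 34.1% for IFI6, 33.3% for IFI44 and 34.0% for IFI27, and at most 13.8% for the other 5 genes. In VprBP shRNA cells it lay between 2.92% and 11.7% for the 8 genes.

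The chromosomal neighbours of the effector genes are given as a description. The effector genes were chosen partly for large increases, so nothing is read from smaller differences in their neighbours. For each gene the nearest listed gene on either side was taken, which gave 12 neighbours. Of these, 4 rose, 3 fell and 5 were not called, near the 33.0% called higher and 27.8% called lower over all genes. Nothing particular to the neighbours is read from these counts. The median of the 12 was 0.03 on the log2 scale. The largest ratios among them were those of the relatives DDX60L (2.76) and IFI27L2 (2.19), both above that of the effector gene IFI35 (1.65). VAT1, whose 3′ end lies 151 bases from the 3′ end of IFI35 on the opposite strand, fell to 118 ± 1.24 in VprBP shRNA cells, against 140.1 ± 2.83 in control cells (SD, n = 3 each; limma adjusted p = 2.14e-05). RNF144A, 19.2 kilobases from RSAD2, fell 1.33-fold (limma adjusted p = 2.84e-04). The genes on either side of IFI6, AHDC1 and FAM76A, were not called, with log2 fold changes of -0.08 (SE 0.07) and 0.00 (SE 0.13) and adjusted p-values of 0.328 and 0.977. The neighbours of the IFI44L and IFI44 pair were PTGFR, 79.2 kilobases away and not called (adjusted p = 0.0723), and TTLL7, 5201 kilobases away, which rose 1.51-fold (adjusted p = 7.78e-05). Some other neighbours were also far away, with RPS7 3260 kilobases from CMPK2 and TLL1 2112 kilobases from DDX60. Genes lying closer that are not in the table were not analysed.

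**Figure D4:**
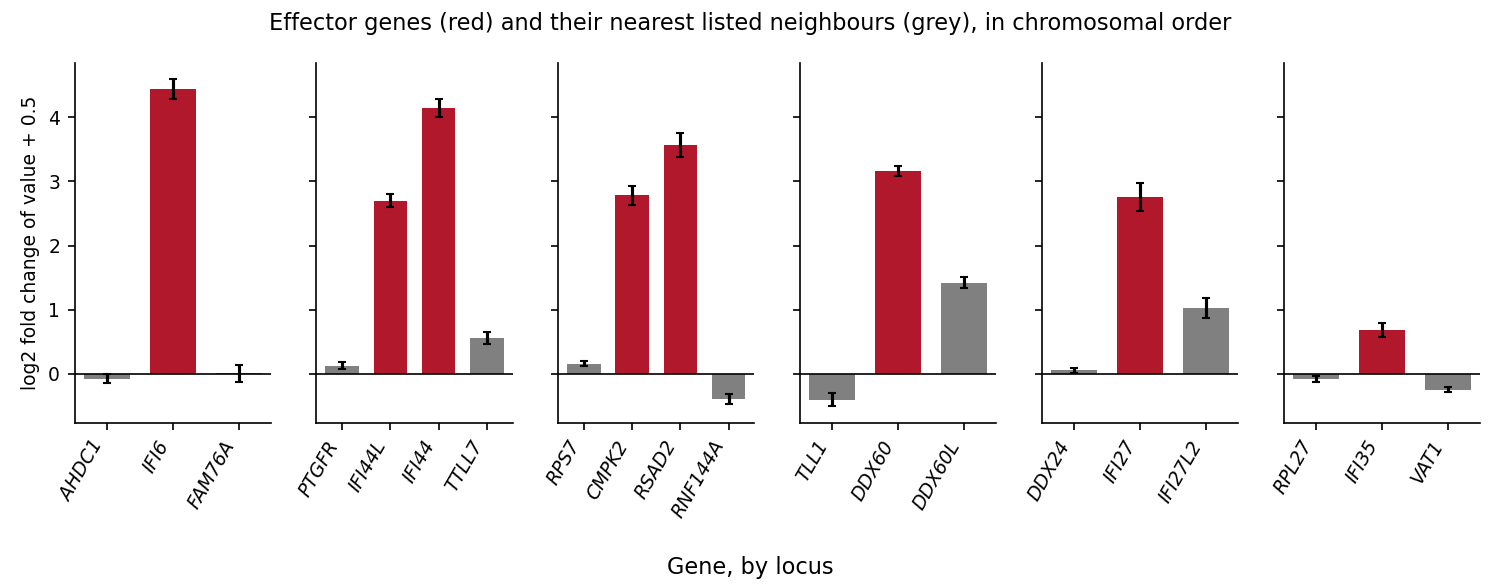
Log2 fold change of value + 0.5, VprBP shRNA over control shRNA, for the effector genes in red and the nearest listed gene on each side in grey, in chromosomal order at 6 loci; error bars are SE. DDX60L and IFI27L2 are the neighbours with the highest bars, and AHDC1 and FAM76A beside IFI6 lie near 0.

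Other interferon-stimulated genes moved with the group. Of 59 genes in this list, 50 were listed. Of these, 45 rose, 2 fell and 3 were not called, and 28 rose at least 2-fold. The median of their log2 fold changes was 1.13, against 0.02 over all genes. A gene is in the table only if some library has at least 150 estimated reads. Genes low in control cells that did not rise could therefore be missing, so the share that rose may be too high. The same limit holds for the lists below. Among all genes tested, 33.0% were called higher and 27.8% lower, together 60.9%. MX1 and MX2, which encode antiviral GTPases, rose 16.7-fold and 22.2-fold, OASL rose 13.8-fold and IFIT3 9.65-fold. Their limma adjusted p-values ran from 8.61e-18 for MX1 to 2.23e-10 for MX2. The MX2 fold rests on a low control value, 0.393 ± 0.166 (SD, n = 3). Its log2 fold change ran from 2.81 to 4.47 under other processing, so no order of MX1 and MX2 is read. RNF213, a large ubiquitin ligase, fell 1.59-fold, to 118 ± 5.15 in VprBP shRNA cells, against 187 ± 4.79 in control cells (SD, n = 3 each; limma adjusted p = 6.47e-10). LY6E fell 1.09-fold (limma adjusted p = 0.0111), and without control library 1 it was no longer called (adjusted p = 0.0649).

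Of 22 interferon gamma-responsive genes, 13 were listed, and of these 12 rose and 1 was not called. Their median was 0.72 on the log2 scale. The largest increases were in the guanylate-binding protein genes GBP1 (4.83-fold) and GBP5 (4.97-fold), followed by IRF1 (2.31-fold) and GBP3 (2.21-fold), with limma adjusted p-values from 1.07e-11 for GBP1 to 4.09e-07 for GBP5. GBP2, the gene that was not called, had 12.2 ± 1.08 in VprBP shRNA cells and 14.1 ± 0.326 in control cells (SD, n = 3 each; adjusted p = 0.0575). It was called lower without VprBP shRNA library 3, under both other scalings and with limma-voom.

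Among receptors and signal transducers the differences were smaller, apart from ISGF3. Of the 12 listed, 6 rose, 1 fell and 5 were not called (median 0.13 on the log2 scale), where 33.0% of all genes were called higher and 27.8% lower. IRF9, the DNA-binding subunit of ISGF3, rose 7.61-fold, to 64.4 ± 1.12 in VprBP shRNA cells, against 8.47 ± 1.40 in control cells (SD, n = 3 each; limma adjusted p = 1.49e-13). STAT2 rose 1.63-fold (limma adjusted p = 1.63e-09). The type I receptor gene IFNAR1 rose 1.14-fold (limma adjusted p = 0.00474), and IFNAR2 was not called, with 20.5 ± 1.59 in VprBP shRNA cells and 18.6 ± 0.775 in control cells (SD, n = 3 each; adjusted p = 0.13). The type III receptor gene IFNLR1 had 17.2 ± 0.931 in VprBP shRNA cells and 19.1 ± 1.04 in control cells and was not called (SD, n = 3 each; adjusted p = 0.111). The interferon gamma receptor genes went opposite ways, IFNGR1 rising 1.28-fold and IFNGR2 falling 1.49-fold (limma adjusted p = 3.81e-04 and 2.27e-08). The interferon genes of the list were not analysed here.

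Of 13 listed nucleic acid sensors and adaptors, 8 rose, 3 fell and 2 were not called. Among all genes, 33.0% were called higher and 27.8% lower. The median of the 13 was 0.21 on the log2 scale. Next to RIGI, the RNA sensor gene IFIH1 rose 3.14-fold, IFI16 rose 4.49-fold and IRF7 rose 1.99-fold, with limma adjusted p-values of 1.75e-07 or lower. STING1, MAVS and TRIM56 fell 1.49-fold, 1.10-fold and 1.13-fold (limma adjusted p = 6.42e-05, 0.00239 and 0.00895). Of 10 listed negative regulators, 4 rose, 3 fell and 3 were not called, and their median was 0.09 on the log2 scale. These counts are near the shares over all genes, so nothing particular to this list is read from them. ISG15 rose 4.71-fold and USP18, a protease that removes ISG15 from proteins and dampens the type I receptor, rose 3.03-fold, and both also belong to the list of interferon-stimulated genes. PTPN6 and PTPN1 rose 1.27-fold and 1.12-fold, and PIAS3, PTPN11 and SOCS3 fell 1.22-fold, 1.08-fold and 1.11-fold. SOCS3 was not called without VprBP shRNA library 3, control library 1 or control library 3, with adjusted p-values of up to 0.151.

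Of 11 listed relatives and reported partners of the effector proteins, 5 rose, 2 fell and 4 were not called. Among all genes, 33.0% were called higher and 27.8% lower. The median of the 11 was 0.06 on the log2 scale. The 4 with the largest increases were RIGI, DDX60L, NMI and IFI27L2. XIAP, the caspase inhibitor that XAF1 binds, fell 1.12-fold (limma adjusted p = 0.00266), and SKP2, a ubiquitin ligase subunit reported to act with IFI27, fell 1.11-fold (limma adjusted p = 0.00915). HSPA5, the chaperone reported to hold IFI6 in the endoplasmic reticulum membrane, was not called (758 ± 19.8 in VprBP shRNA cells and 772 ± 11.98 in control cells, SD, n = 3 each; limma adjusted p = 0.472). FKBP5, reported to bind IFI44 and IFI44L, was not called either (adjusted p = 0.299).

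**Figure D5:**
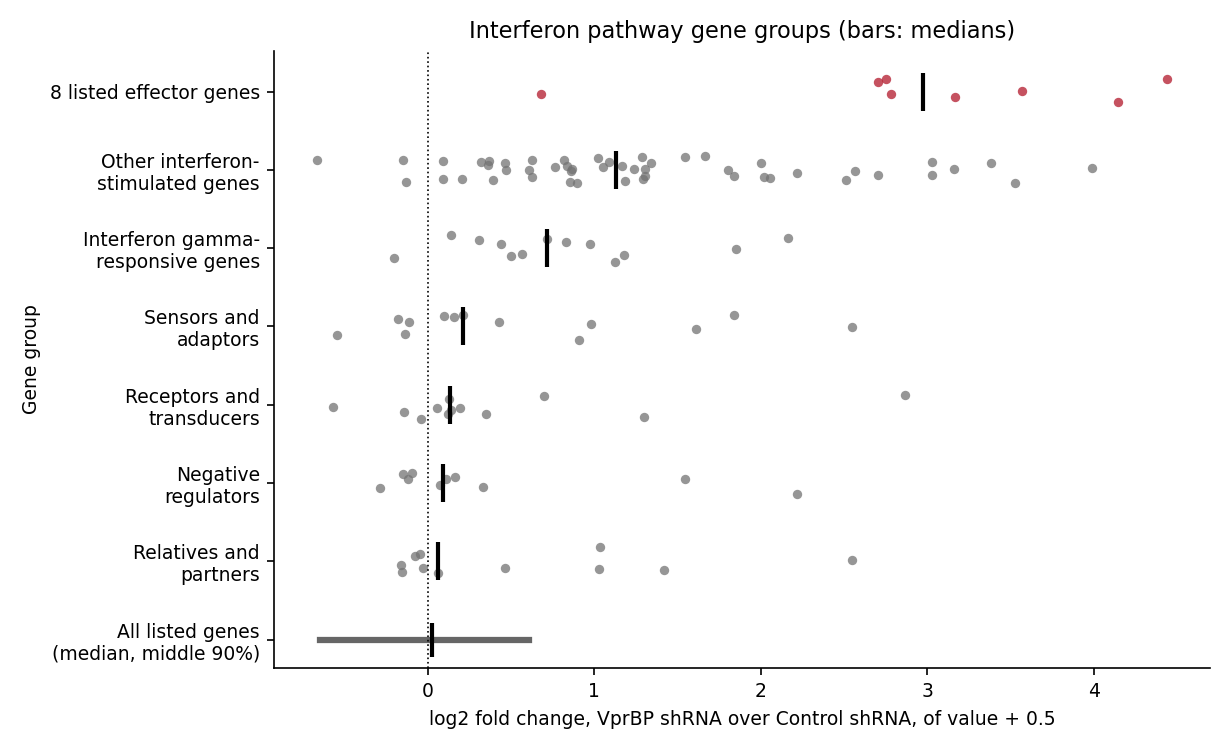
Log2 fold change of value + 0.5, VprBP shRNA over control shRNA, of the listed genes in each group (points, spread vertically for legibility), with black bars at the medians; the bottom row gives the median and middle 90% of all 12227 genes. The median is 2.97 for the 8 effector genes, 1.13 for other interferon-stimulated genes and 0.02 for all genes.

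The genes outside the group whose pattern over the 6 libraries was most like it were IFIT1, MT1X, OAS2, IFIT3 and CXCL3. Likeness was the Euclidean distance between a gene's deviations from its own mean, on the log2(value + 0.5) scale, and the median deviations of the 8 genes. The distances were 0.2, 0.204, 0.213, 0.215 and 0.33, while those of the 8 genes themselves ran from 0.162 for DDX60 to 2.91 for IFI35. IFIT1, OAS2 and IFIT3 are interferon-stimulated genes. The metallothionein gene MT1X had 20.03 ± 0.606 in VprBP shRNA cells and 2.08 ± 0.105 in control cells, and the chemokine gene CXCL3 had 174.9 ± 3.26 in VprBP shRNA cells and 23.6 ± 0.923 in control cells (SD, n = 3 each). With a single contrast between the groups, this distance mostly reflects how close a gene's fold change is to that of the group. MT1X, IFIT1, IFIT3 and CXCL3 have close relatives with similar sequence, and reads could have been split between copies.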

How the data were processed

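RNA sequencing values of 6 PC3 libraries, 3 with VprBP shRNA and 3 with control shRNA, were taken from a single deposited gene table. The submitters' processing notes name Partek and the build hg38; the sources used here do not give the aligner, quantifier or scaling. The deposited values are called raw counts but are a scaled signal: the 75th percentile lay between 78.99 and 79.02 in every library, and low values were multiples of 1 step per library, the value of 1 read (0.0254 to 0.0439). Of a library's values, 54.8% to 64.8% were whole multiples within 0.02 reads, so no count model was used. The table holds genes with a highest estimate of at least 150 reads.

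The test was limma's (version 3.58.1, R 4.3.3), two-sided with a variance trend, applied to log2(value + 0.5), and p-values received Benjamini-Hochberg adjustment over 12227 genes. A call is an adjusted p under 0.05. Folds are ratios of group means. Results for 2 list genes are not reported here. The gene group and all lists were chosen with earlier results of these data known. Named genes are all listed members, DCAF1, up to 4 called genes per list and direction with the largest log2 fold change and a mean of at least 1, the listed interferon receptors, the nearest neighbours, and the 5 genes most like the group. Other genes named from a list (CMPK1, GBP2, HSPA5, FKBP5 and the markers) were chosen after their values were seen. Promoter windows are from RefSeq, and exon lengths from GENCODE 29. Ends of gene coordinates are those of the deposited table reduced by 1.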

Additional observations from a re-analysis of the deposited data

How the results depend on the processing

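Every listed effector gene kept a positive log2 fold change under each alternative that gave it a value, and DCAF1 stayed called and lower, between -0.999 and -0.947. The median log2 fold change of the group was 2.97, and it moved to 3.46 with a pseudocount of 0.1, to 2.74 with a pseudocount of 1 and to 3.62 with limma-voom on estimated reads; leaving out single libraries gave 2.95 to 3.01. RSAD2 moved most, between 2.88 with a pseudocount of 1 and 5.17 with limma-voom, because its control value is below the constant added. A minimum mean of 5 removed RSAD2 and IFI27. Tested against a fold of 1.5, the table held 296 higher and 355 lower genes, in place of 4037 and 3404, and the other interferon-stimulated genes 32 higher and 0 lower. The same test left 5 of 12 interferon gamma-responsive genes called higher, 2 of 6 receptors and transducers, 5 of 8 sensors and adaptors, 2 of 4 negative regulators and 3 of 5 relatives and partners, with 0 lower in each list. Leaving out single libraries gave 3643 to 4017 higher and 3054 to 3388 lower genes. Same-numbered libraries did not deviate together (correlations of 0.018, -0.156 and -0.168), and not every library correlated best with its own number; the replicate block gave 3826 higher and 3216 lower genes. GAAA NN GAAA on the forward strand alone was found in 4 of the 8 listed genes. Depth limits the ratios of RSAD2 and IFI27 most, since 16 and 23 pooled control reads stand behind them.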

Other observations

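Among protein-coding genes outside the group, those with repeated GAAA NN GAAA matches in a promoter window included many that were higher in VprBP shRNA cells and some that were not. This comparison was chosen after the data were seen, and it is a description of genes and not a test. Of 11197 such genes, 9216 (82.3%) had a promoter window, though only 76.6% of those called at least 2-fold higher had one. Of the 33 genes with 2 or more matches, 22 were called higher (66.7%), 10 of them with a ratio of at least 2 (30.3%), and 6 were called lower. Of 298 genes with 1 match, 40.9% were called higher and 6.04% at least 2-fold, and of 8885 genes with no match, 34.2% were called higher and 1.6% at least 2-fold. The 33 genes included IFIT3, IFIT1, IFITM1, ISG15, OAS3, IFIH1, HERC5 and TRIM21, and also ATF5, a stress-response transcription factor gene, which was 2.45-fold higher (limma adjusted p = 4.56e-13). At the other end BBC3, the gene of the cell death protein PUMA, had means of 1.998 in VprBP shRNA cells and 5.03 in control cells, and the steroid sulfatase gene STS had means of 43.4 in VprBP shRNA cells and 68.4 in control cells. Both fell (limma adjusted p = 1.32e-05 and 8.76e-09).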
